A study of Mus musculus with 8 samples.

Results

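The complement and coagulation genes of the liver are 41 named genes for plasma proteins of 2 linked proteolytic cascades. The members were listed by symbol, with no threshold on their values, although earlier results of these data were known when the list was made. Of the 41 symbols, 40 had a row among the 23282 gene rows of the series. The symbol C1s had none, and C1s1, the row for the mouse C1s protease, is given with the other complement genes. Levels are CPM, a library's counts scaled to a common total, and a gene counts as measured in a tissue where its mean over the 4 libraries was at least 10 CPM. By that rule 36 members were measured in liver, among 6709 genes, and 17 in uterus, among 9198 genes. In liver, C1qb at a mean of 9.62 CPM, Cfp at 8.82 CPM, C6 at 7.51 CPM and Masp1 at 1.99 CPM fell below the limit, while F11 at 15.9 CPM and C1qc at 20.1 CPM were the members closest above it.

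Complement tags microbes and damaged cells for removal. Its classical, lectin and alternative branches meet at the cleavage of C3 and end in a membrane pore built from terminal components. Coagulation is a chain of proteases, several of which need vitamin K for their synthesis, that ends with thrombin turning fibrinogen into fibrin. Plasmin later dissolves that fibrin. Hepatocytes make most of these proteins, whereas the C1q chains come mainly from macrophages, and several members, among them fibrinogen and C3, are known as acute-phase proteins whose synthesis follows interleukin-6.

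The study asked how Korean red ginseng (KRG) acts against the influence of bisphenol A (BPA), a building block of plastics with weak estrogen-like activity. All mice were female CD-1, an outbred stock, ovariectomized at 6 weeks of age and rested for 1 week. Control mice had ovariectomy alone, BPA mice received 200 mg/kg/day, KRG mice received 1.2 g/kg/day, and a last group received both agents at these doses, each by mouth for 7 days. Each of these 4 treatments gave 1 liver and 1 uterus library, 8 in all, prepared from 500 ng of total RNA with a 3′ end sequencing kit, which counts transcripts near their polyadenylated end. Whether a library stands for 1 animal or for pooled animals is not stated in the labels, and neither is whether both organs were taken from the same mice. A difference between 2 libraries therefore has no replicate check, and its 95% exact (Clopper-Pearson) interval covers counting error only. Reads carried no molecular identifiers in the sources used here, so such intervals may be too narrow.

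Library totals ran from 12372073 to 15290950 counts, and Rn45s, the ribosomal RNA precursor, took 8.30% to 12.4% of them. The 12 hepatocyte markers summed to between 65534 and 75703 CPM in the livers, with none at 0, and the uterine stroma genes Hoxa10 and Hoxa11 were at 0 in every liver. Other tissues' markers were uneven among the livers. The 11 acinar pancreas markers summed to 1781 CPM in the BPA liver and to 155 to 239.7 CPM in the other three, with 5 of them at 0 in the control. Cela1 alone made up 498 CPM of this sum in the BPA liver. It made up nearly all of it in the control, KRG and combined livers, at 237.7, 145 and 177 CPM. The 9 skeletal muscle markers summed to 189 CPM in the control liver, 2.93 CPM with BPA, 521 CPM with KRG and 1.70 CPM with both agents. The 7 erythroid markers summed to 3745, 7344, 5396 and 1780.1 CPM in that order. The uteri were uneven too. Their skeletal muscle markers summed to 112, 218, 91.3 and 1743 CPM in the control, BPA, KRG and combined libraries. Their erythroid markers summed to 4996, 2264, 3740 and 814 CPM. Leaving the acinar, muscle and erythroid genes out of the totals, an alternative added after the data were seen, changed no count of members given for liver by more than 1.5 times.

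Across the 4 treatments the liver members varied about as much as other liver genes. Together the members took 4.37% of all counts in the control liver, 3.98% in the BPA liver, 3.99% in the KRG liver and 4.54% in the liver given both agents. For the 36 measured members, the median ratio of the highest to the lowest liver was 1.31-fold, against 1.33-fold over all 6709 measured genes, and among those averaging 100 CPM or more it was 1.285-fold both for 32 members and for all 1467 genes. The highest and lowest livers were less than 1.5-fold apart for 28 of 36 members, or 77.8%, against 71.7% of all genes. At least 2-fold separated them for 1 member, C8a, against 8.44% of all genes. C4bp, a cofactor for the breakdown of C4b, was the most even member, at 187, 195, 186 and 185 CPM in the control, BPA, KRG and combined libraries. F10, the protease that activates prothrombin, followed at 776, 744, 735 and 730.1 CPM with 1.06-fold between the highest and the lowest liver.

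Most members lay slightly below the control in the livers given 1 agent, 27 of 36 with BPA and 27 of 36 with KRG, as did 4088 and 3855 of the 6709 measured genes. In BPA against control, 3 of 36 members were at least 1.5-fold lower and 0 were at least 1.5-fold higher, where 10.6% and 3.31% of all measured genes were. In KRG against control, 0 members passed 1.5-fold in either direction, where 4.72% of all genes were lower and 3.37% higher. With both agents against control, 1 member (C8a) was lower and 0 were higher, beside 4.07% and 3.32% of all genes. With both agents against BPA, 2 members were lower and 5 higher, beside 3.29% and 9.52% of all genes. With both against KRG, 1 member (C8a) was lower and 0 higher, beside 3.86% and 6.42%. None of these shares stood far from that of all genes, and the comparisons share libraries, so they are not independent of each other.

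The members' median log2 ratios were close to those of all measured genes. They were -0.11 against -0.08 in BPA against control, -0.11 against -0.05 in KRG against control and 0.02 against 0.04 with both agents against control. Relative to BPA alone, both agents gave 0.16 for the members and 0.12 for all genes, a shift of the whole library that trimmed-mean (TMM) scaling removes, and under that scaling 3 members in place of 5 were at least 1.5-fold higher. The BPA liver was the lowest of the 4 for 16 members and the liver with both agents the highest for 18, while 39.0% and 35.5% of all genes had their lowest and highest value there.

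**Figure D1:**
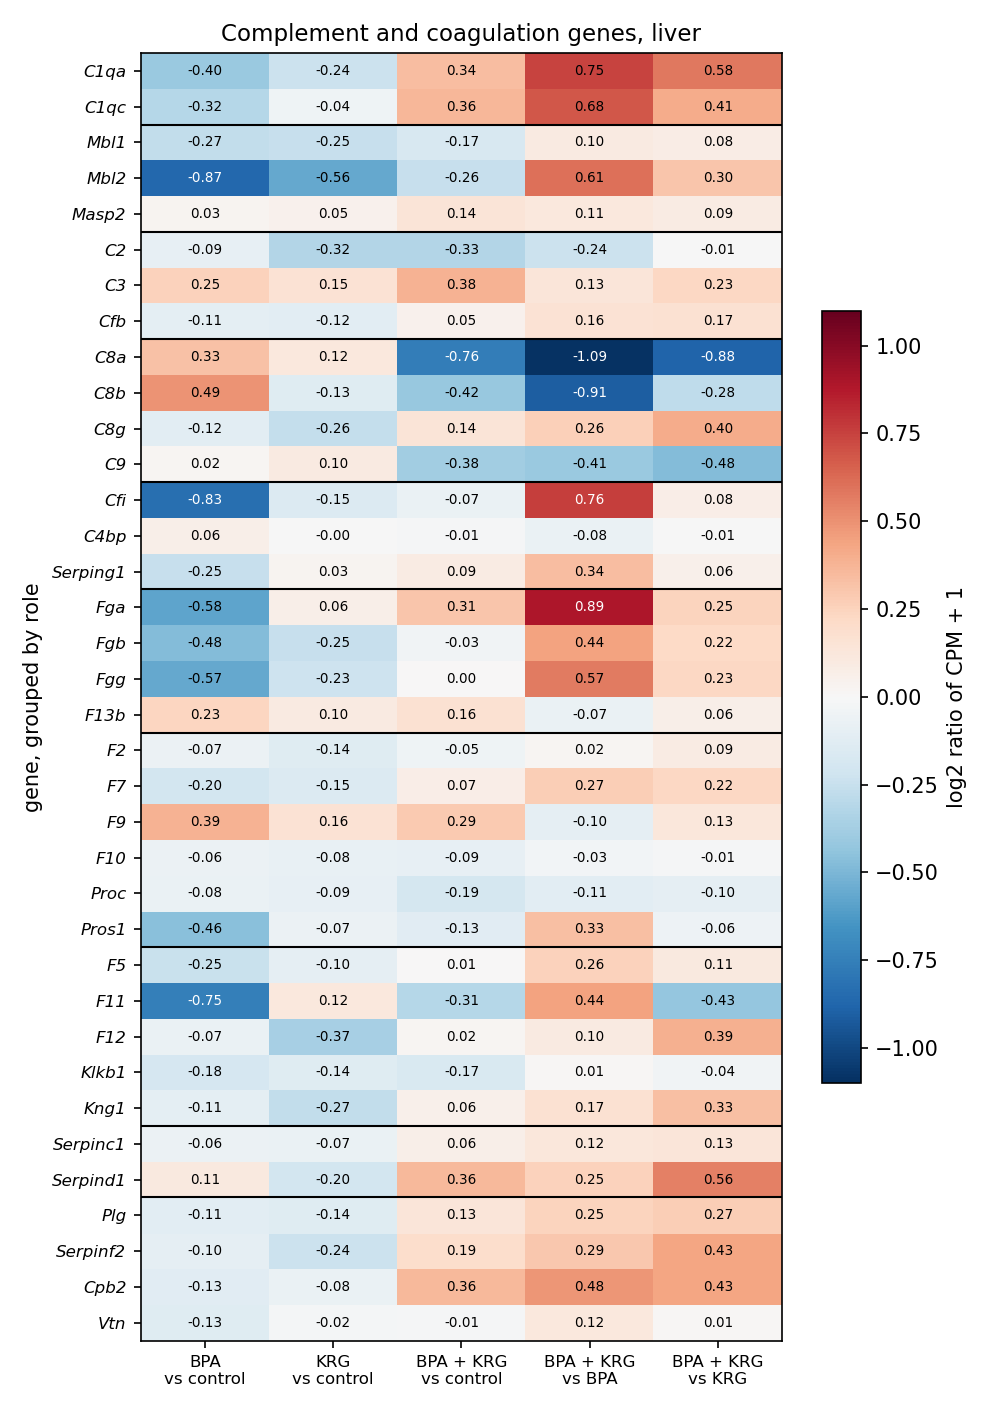
Log2 ratios of CPM + 1 between liver libraries (columns) for the 36 measured members (rows, with lines between roles), with 1 library per treatment and no replicate error. Most cells lie within 0.5 of 0; the lowest is C8a at -1.09 and the highest Fga at 0.89, both in the combined treatment against BPA.

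A fit that sets the 2 livers with an agent against the 2 without it, with BPA and KRG as additive terms, was the only test run on these 4 libraries alone. It leaves 1 residual degree of freedom and takes any departure from additivity as error. For BPA, edgeR's quasi-likelihood test with Benjamini-Hochberg adjustment called 0 of 36 members and 0 of 6709 genes (0% of the background), 362 genes had an unadjusted p under 0.05, and 1 member did. That member was F11, at a log2 difference of -0.63 (SE 0.19, unadjusted p = 0.0275, adjusted p = 0.845). For KRG it again called 0 members and 0 genes, with 220 genes but 0 members under an unadjusted p of 0.05. DESeq2 called 0 members for either agent, with 2 under an unadjusted p of 0.05 in each, while it called 43 genes higher and 44 lower for BPA and 21 higher and 63 lower for KRG. No liver member can therefore be said to have risen or fallen with an agent.

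The C1q chains form the recognition head of the classical pathway. C1qa, the A chain, stood at 155, 117, 131 and 196 CPM in the control, BPA, KRG and combined livers. C1qc, the C chain, stood at 19.8, 15.6, 19.1 and 25.7 CPM. Both were lowest with BPA and highest with both agents, 1.68-fold (95% interval 1.58 to 1.80) apart for C1qa and 1.64-fold (1.37 to 1.97) apart for C1qc. C1qb, the B chain, stayed under the limit at 8.04, 8.17, 10.6 and 11.6 CPM.

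The summed markers of cells that make C1q were also lowest with BPA and highest with both agents. The 12 Kupffer and macrophage markers, none of them at 0 in any liver, summed to 465, 348, 526 and 685 CPM in the same order. Of the 7 measured markers, 7 were below the control with BPA and 7 were above BPA with both agents. With KRG, 5 of them were above the control and 2 below, while C1qa and C1qc were below it. The part of macrophages in the C1q values was not tested, and in bulk tissue fewer cells of a type and less RNA per cell cannot be told apart. C1ra, C1rb and other partners of C1q are counted with the pathway lists further on.

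**Figure D2:**
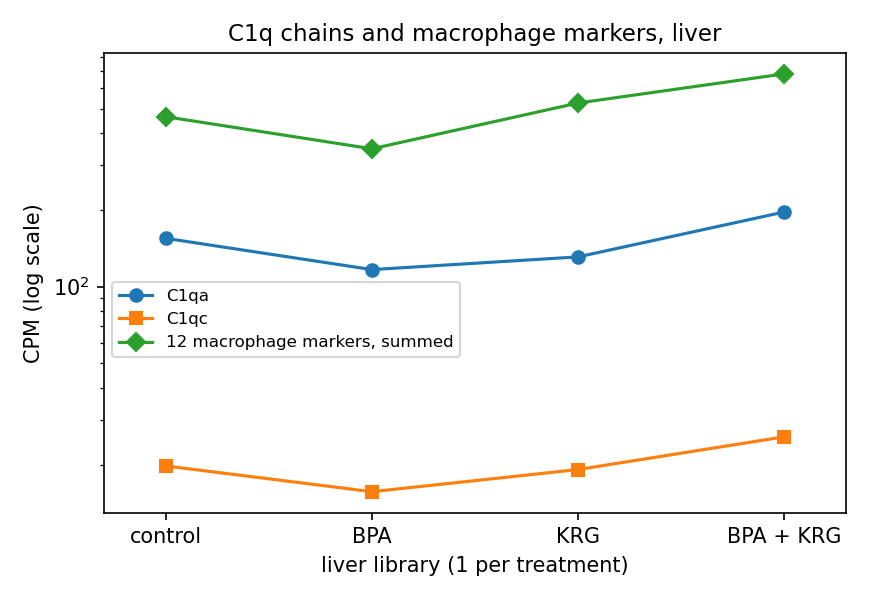
CPM (log axis) of C1qa, C1qc and the sum of 12 macrophage markers in the 4 liver libraries, 1 per treatment. All 3 lines are lowest with BPA and highest with both agents.

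Among the lectin pathway members, Mbl2 varied most. It encodes mannose-binding lectin C, which recognises sugars on microbes, and stood at 1761 CPM in the control, 966 CPM with BPA, 1195 CPM with KRG and 1473 CPM with both. The BPA liver was 1.82-fold below the control (1.79 to 1.86), and the KRG liver lay 1.47-fold below it (1.45 to 1.503). Its sister gene Mbl1, mannose-binding lectin A, spread less, over 299, 248, 251 and 265 CPM. Masp2, the protease that these lectins activate, was nearly flat at 147 to 162 CPM.

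C3, on which all complement branches converge, was lowest in the control and highest with both agents. Its levels were 5671, 6748, 6314 and 7396 CPM for control, BPA, KRG and both agents in turn. Both livers with BPA were above both without it, as for F13b, Serpind1 and F9, 4 of 36 members where 18.5% of all genes had that order. Cfb, factor B of the alternative pathway's C3-cleaving enzyme, ran only from 1782 to 1999 CPM, and C2, its classical pathway counterpart, from 62.2 to 78.3 CPM. Cfp, properdin, which stabilises that enzyme, was under the limit for measured genes at 7.91, 5.55, 8.70 and 13.1 CPM, and its liver with both agents lay 2.36-fold above BPA (1.78 to 3.16) on 162 and 72 counts. C2 and Cfb are neighbours on chromosome 17 (mm10), at 34862604 to 34898265 and at 34856374 to 34862518, and both overlap the readthrough gene Gm20547 on their strand, so reads could be split between them.

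The terminal pathway held the widest difference among the 36 members measured in liver, and the subunits of C8 did not share it. C8 is built from an alpha, a beta and a gamma chain, encoded by C8a, C8b and C8g, and anchors the pore that C9 completes. C8a stood at 804, 1008, 874 and 475 CPM in the control, BPA, KRG and combined livers. C8b stood at 225, 317, 205 and 168 CPM. C8g stood at 476, 438, 396 and 525 CPM. The liver given both agents was thus the lowest for C8a and C8b and the highest for C8g.

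The liver given both agents lay 2.12-fold below the BPA liver for C8a (2.06 to 2.19) and 1.88-fold below it for C8b (1.78 to 1.98). C8a was the only one of the 36 measured members past 2-fold in any of the 5 liver comparisons. All measured genes past 2-fold made up 1.33% lower and 2.36% higher with both agents against BPA, 3.06% and 1.22% in BPA against control, 1.3% and 1.04% in KRG against control, 1.22% and 1.57% with both against KRG, and 1.4% and 1.04% with both against control. The count of C8a relative to C8g was 1.69 in the control, 2.30 with BPA, 2.20 with KRG and 0.904 with both. C9 followed the direction of C8a and C8b at a smaller size, with 36.8, 37.5, 39.4 and 28.0 CPM. Against the control, both agents gave C8a 1.69-fold less (1.64 to 1.75) and C8b 1.34-fold less (1.27 to 1.41). C8a overlaps the antisense gene Gm17662, and C8g overlaps Fbxw5 on the other strand. Whether the counts use strand is not given in the sources used here.

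C8a and C8b lie next to each other on chromosome 4 (mm10), C8b at 104766317 to 104804548 on the plus strand and C8a at 104815679 to 104876398 on the minus strand. C8g lies apart from them on chromosome 2, at 25498651 to 25501719. The 250 bases before the RefSeq start of C8a (chr4:104876399-104876648, minus strand) and of C8b (chr4:104766067-104766316, plus strand), from RefSeq's table for GRCm38.p6, are shown because both genes were highest with BPA and lowest with both agents. Capitals mark matches to the motifs spelled out with the fibrinogen promoters.
C8a: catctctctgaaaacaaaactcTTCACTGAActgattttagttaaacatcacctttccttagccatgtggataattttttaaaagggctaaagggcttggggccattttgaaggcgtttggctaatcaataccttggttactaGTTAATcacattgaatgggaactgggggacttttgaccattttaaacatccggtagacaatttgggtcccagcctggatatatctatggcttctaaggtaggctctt
C8b: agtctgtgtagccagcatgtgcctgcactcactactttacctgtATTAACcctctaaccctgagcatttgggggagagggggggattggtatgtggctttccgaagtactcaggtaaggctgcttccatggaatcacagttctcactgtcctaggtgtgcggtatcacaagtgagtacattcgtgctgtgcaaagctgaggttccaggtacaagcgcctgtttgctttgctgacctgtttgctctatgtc
Each window holds a match to the half-site of HNF1, a transcription factor of liver cells, and that of C8a also holds a match to the STAT motif.

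The complement inhibitors differed from one another. Cfi, the protease that cleaves C3b and C4b, was at 354 CPM in the control liver, 198 CPM with BPA, 319 CPM with KRG and 337 CPM with both. The BPA liver alone was low, 1.79-fold below the control (1.70 to 1.87). Serping1, the C1 inhibitor, which also restrains factor XII and kallikrein, was lowest in the same liver at 602 CPM and lay between 718 and 763 CPM in the others.

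The 3 fibrinogen chains were all lowest in the BPA liver. Fga, Fgb and Fgg encode the alpha, beta and gamma chains that assemble into 1 protein. Fga stood at 287, 192, 299.6 and 356 CPM in the control, BPA, KRG and combined livers. Fgb stood at 5337, 3831, 4484 and 5209.7 CPM. Fgg stood at 3674, 2481, 3142 and 3677 CPM. The BPA liver was below the other 3 for every chain, while the control and combined livers were nearly equal for Fgb and Fgg.

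With BPA the chains lay 1.495-fold (1.42 to 1.57), 1.39-fold (1.38 to 1.41) and 1.48-fold (1.46 to 1.501) below the control, in the order Fga, Fgb, Fgg. Only Fga passed 1.5-fold in any comparison, at 1.85-fold higher (1.76 to 1.95) with both agents than with BPA. The count of Fgb relative to Fgg kept within 1.42 to 1.54 over the 4 livers. For Fgb relative to Fga it was 18.6, 19.9, 14.96 and 14.6, higher in the 2 livers without KRG than in the 2 with it. In the additive fit no chain had an unadjusted p under 0.05 for either agent. F13b, the carrier subunit of factor XIII, which crosslinks fibrin, did not share the low value and ran from 143 CPM in the control to 168 CPM with BPA. Fgg overlaps the antisense gene Gm30097.

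**Figure D3:**
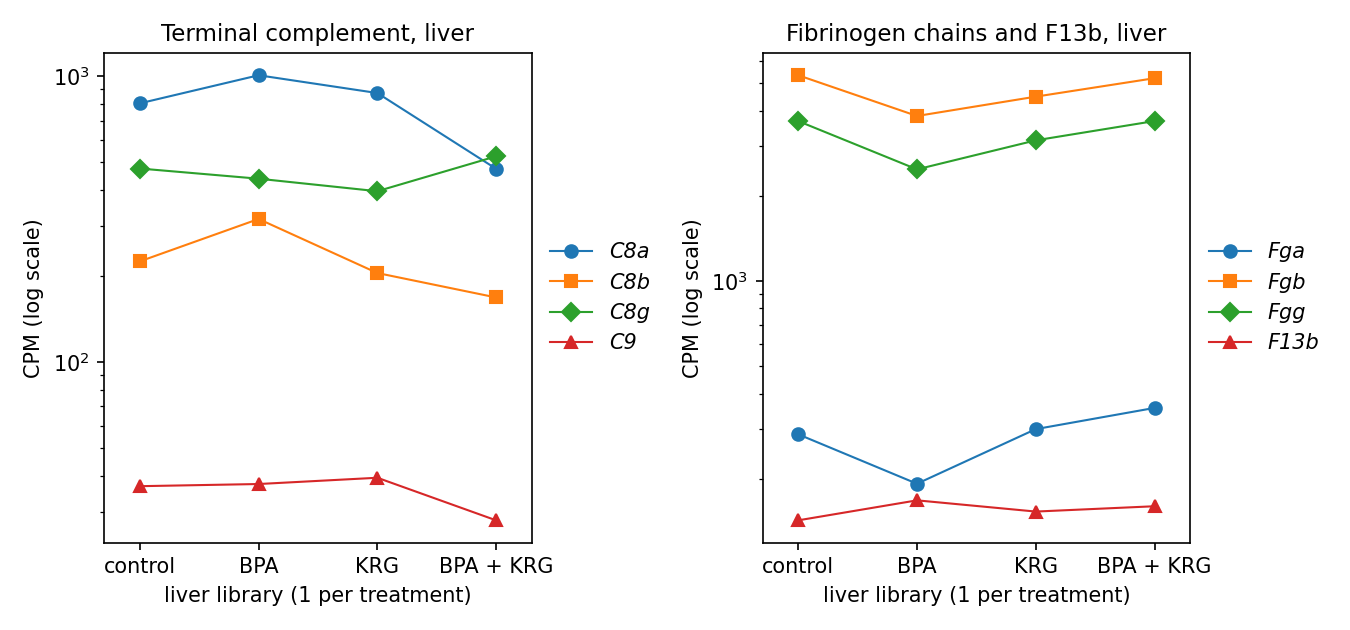
CPM (log axis) in the 4 liver libraries, 1 per treatment: C8 subunits and C9 on the left, fibrinogen chains and F13b on the right. C8a crosses below C8g with both agents, and the 3 fibrinogen lines dip together with BPA.

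The fibrinogen genes lie side by side on chromosome 3 (mm10), Fgg at 83007724 to 83015049 and Fga at 83026076 to 83033627 on the plus strand and Fgb at 83040141 to 83049863 on the minus strand. Their promoters are shown because all 3 were lowest with BPA and are textbook targets of interleukin-6. The windows, from the same RefSeq table, are chr3:83025903-83026152 (plus strand) for Fga, chr3:83049864-83050113 (minus strand) for Fgb and chr3:83007474-83007723 (plus strand) for Fgg. The window of Fga runs past the gene start given above, 83026076. Its last part, with the HNF1 match, thus lies inside the gene as placed above.
Fga: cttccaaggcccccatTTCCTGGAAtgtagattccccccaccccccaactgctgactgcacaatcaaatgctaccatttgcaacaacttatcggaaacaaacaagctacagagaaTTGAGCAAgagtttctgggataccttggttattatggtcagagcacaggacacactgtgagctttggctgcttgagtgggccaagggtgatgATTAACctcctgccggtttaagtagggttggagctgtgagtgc
Fgb: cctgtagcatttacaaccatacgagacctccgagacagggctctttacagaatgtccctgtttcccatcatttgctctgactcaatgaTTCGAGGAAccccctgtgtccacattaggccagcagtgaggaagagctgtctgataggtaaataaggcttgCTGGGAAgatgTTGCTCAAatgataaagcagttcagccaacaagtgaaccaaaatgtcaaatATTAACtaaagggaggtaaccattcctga
Fgg: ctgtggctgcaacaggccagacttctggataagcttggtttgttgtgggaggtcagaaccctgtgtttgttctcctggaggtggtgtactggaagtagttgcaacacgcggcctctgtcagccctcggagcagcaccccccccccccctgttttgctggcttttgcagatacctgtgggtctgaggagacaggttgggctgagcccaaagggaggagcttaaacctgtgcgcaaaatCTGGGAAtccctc
Capitals mark matches on either strand to the HNF1 half-site GTTAAT, the interleukin-6 response element CTGGGAA, the C/EBP motif TTGCNNAA or the STAT motif TTCNNNGAA. The window of Fga holds the HNF1, C/EBP and STAT matches, that of Fgb all 4, and that of Fgg the interleukin-6 response element alone. The TATA box TATAAA was searched too and is in none of the 5 windows printed.

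Of the 40 members, 31 had a promoter in the table, with 32 windows. HNF1 half-sites were in 25% of these windows and in 6.43% of all 32851 promoters of the same length. For the C/EBP motif the shares were 21.9% and 9.56%, for the STAT motif 18.8% and 7.02%, for the interleukin-6 response element 12.5% and 9.10%, and for the TATA box 6.25% and 12.4%. A match is a description of letters and not a site that a factor was shown to bind.

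The vitamin K-dependent members all stayed within 1.5-fold, from 1.06-fold between the highest and lowest liver for F10 to 1.38-fold for Pros1. F2, prothrombin, stood at 6593, 6292, 6002 and 6387 CPM in the control, BPA, KRG and combined livers. Proc, which encodes protein C, an anticoagulant protease, ran from 552 to 630 CPM and was lower in both livers with KRG than in both without it. C4bp, C2, C8b and F10 had the same order, 5 of 36 members where 10.6% of all genes had it. F9, a partner of factor VIII, was lowest in the control at 99.9 CPM and highest with BPA at 131 CPM. F7, which starts coagulation with tissue factor, ran from 113 to 137 CPM.

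Pros1, protein S, the cofactor of protein C, was lower in both livers with BPA than in both without. It stood at 130.2, 94.6, 124 and 119 CPM in the usual order, and F11 and Klkb1 had the same pattern, 3 of 36 members where 18.0% of all genes had it. F11, which encodes factor XI of the contact pathway, stood at 18.4, 10.5, 20.01 and 14.6 CPM. The BPA liver was 1.75-fold below the control for F11 (1.42 to 2.17), on 136 and 281 counts. Klkb1, plasma prekallikrein, was nearly flat at 101 to 115 CPM, and F5, the cofactor of factor Xa, ran from 395 to 472 CPM.

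The contact factor F12 and the kininogen Kng1, source of bradykinin, had their lowest value with KRG. F12 was at 1142, 1085, 884 and 1162 CPM, and Kng1 at 4129, 3827, 3419 and 4302 CPM. Kng2 is a close copy of Kng1, so that reads could be split between them. Serpinc1, antithrombin, was among the most even genes at 2873 to 3150.2 CPM. Serpind1, heparin cofactor II, differed more, at 464, 499.8, 404 and 595 CPM, the combined liver lying 1.47-fold above KRG (1.42 to 1.52).

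Of the genes that act on fibrin once formed, Plg, Serpinf2 and Cpb2 were highest in the liver with both agents. Plg, the precursor of plasmin, stood at 2366, 2186, 2154 and 2597 CPM. Serpinf2, its inhibitor antiplasmin, stood at 471, 439.6, 399 and 539 CPM. Cpb2, a carboxypeptidase that slows fibrin breakdown, stood at 277, 253, 262 and 355 CPM. For these 3 the KRG or the BPA liver was the lowest, and no pair of livers was 1.5-fold apart. Vtn, vitronectin, an adhesive glycoprotein that stabilises an inhibitor of plasminogen activation, ran from 506 to 554 CPM.

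Of 18 measured other complement genes, 4 were at least 1.5-fold lower in BPA than in the control and 0 higher, where 10.6% and 3.31% of all genes were. With both agents against BPA, 7 were higher and 0 lower, beside 9.52% and 3.29%. C1s2, a C1s-like protease, stood at 83.1, 37.5, 72.6 and 67.2 CPM in the control, BPA, KRG and combined livers. The BPA liver was the low one. C1s1, the protease of the C1 complex, was at 222, 191, 227 and 230.03 CPM. Among 16 other coagulation genes, 1 was higher and 0 lower in BPA against control, beside the same 3.31% and 10.6%, and their log2 ratios stayed between -0.85 and 0.59 in all 5 liver comparisons.

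Some known acute-phase genes lay much further apart than the fibrinogen chains or C3, and others did not. Of 21 measured, 6 were at least 1.5-fold higher and 1 lower in BPA, 7 higher and 0 lower in KRG, and 12 higher and 0 lower with both agents, each against the control. Of all genes 3.31% were higher and 10.6% lower in BPA, 3.37% and 4.72% in KRG and 3.32% and 4.07% with both. Crp, C-reactive protein, ran only from 422 to 504 CPM. Saa1, serum amyloid A, stood at 45.6, 66.3, 836 and 1122 CPM, so that both livers with KRG were far above both without. Hp, haptoglobin, stood at 2339, 4058, 4687 and 7545 CPM, and Fgl1, a fibrinogen-like protein, at 2337, 1103, 2477 and 3282 CPM. In the additive fit Saa1 had a log2 KRG term of 4.10 (SE 0.19, edgeR adjusted p = 0.0643), which missed the threshold of 0.05. The 6 neutrophil markers with a row summed to 8.70, 9.48, 20.4 and 102 CPM in these livers, with Camp at 0 in the control and BPA livers. Their part in these values was not tested.

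Regulators of liver genes also varied. Of 12 measured, 4 were at least 1.5-fold lower and 2 higher in BPA against control, beside 10.6% and 3.31% of all genes. Onecut1, a liver transcription factor, stood at 16.7, 6.17, 6.37 and 25.4 CPM, and Foxa2, another, at 80.9, 47.9, 33.3 and 138 CPM. Both were lower in each liver given 1 agent than in the control and highest with both. In the vitamin K cycle, 5 genes were measured, and Nqo1, a quinone reductase, was the one past 2-fold, at 4.71, 12.4, 9.32 and 20.4 CPM. None of these lists held a gene that edgeR called for either agent in liver, where 0 of 6709 genes were.

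Set against uterus, most members were higher in liver. With treatment as a term and 3 residual degrees of freedom, edgeR's quasi-likelihood test called 34 of 37 members higher in liver and 0 lower, beside 33.4% and 39.7% of 9941 genes. By the rule for measured genes, 36 members were measured in liver but only 17 in uterus. Those that passed the filter through liver alone could only be higher there, so the count is a description. The differences were largest for Fgg at a log2 value of 10.4 (SE 2.4, adjusted p = 0.00973), F2 at 10.3 (SE 2.3, adjusted p = 0.00745) and Fgb at 10.2 (SE 2.3, adjusted p = 0.00779). Fgg had 471 and 1131 counts in the control and KRG uteri but 2 and 3 in those with BPA. Its 1 fitted value thus covers unlike differences. The smallest p was that of C2, at 2.44 (SE 0.11, adjusted p = 5.46e-05). The test scales by TMM. With column totals the median of all genes moved from -0.12 to -0.96 and the called genes from 3325 higher and 3943 lower to 1846 higher and 6248 lower, while 33 of 37 members were still called higher.

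The other 3 members, the C1q chains C1qa and C1qb and protein S, had levels of the same order in both tissues. Pros1 had a log2 difference of 0.39 (SE 0.20, adjusted p = 0.125), C1qb 0.44 (SE 0.20, adjusted p = 0.0897) and C1qa 0.42 (SE 0.16, adjusted p = 0.0504). None of them passed. C1qc passed at 0.62 (SE 0.19, adjusted p = 0.0278). With column totals the sign flipped for all 4, to -0.44 for Pros1, -0.39 for C1qb, -0.42 for C1qa and -0.22 for C1qc, and none of these passed. Leaving out 1 treatment at a time left 33 to 36 members called. Among other complement genes 17 of 23 were higher in liver and 5 lower, the latter Cd55, Cfd, C3ar1, Itgam and Itgax. Of other coagulation genes 16 of 22 were higher and 6 lower, among the latter Tfpi, Thbd, Procr and Plat, which encode regulators found on or released from vessel walls.

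In uterus, 25 members were present at a low level in the 2 libraries without BPA and stood under 1% of their liver level in both libraries with it. Fgb stood at 51.8 CPM in the control uterus, 0.802 CPM with BPA, 117 CPM with KRG and 0.270 CPM with both agents. F2 stood at 73.8, 0.729, 123 and 0.608 CPM in that order, and Kng1 at 61.3, 0.875, 153 and 0.743 CPM. For all 25 the groups with and without BPA do not overlap. Both uteri with BPA lay below both without for 17.7% of the 9198 genes measured in uterus. Most of the 25 were not among those measured genes. Fga, C8b and C9 had 0 counts in both uteri with BPA, against 28, 61 and 12 counts in the control uterus and 67, 111 and 31 with KRG.

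In each uterus library the level was set against the liver library of the same treatment. In the control uterus these 25 ran from 0.728% to 3.04% of the liver level, with a median of 1.38%, and in the KRG uterus from 1.72% to 6.06%, with a median of 3.01%. The KRG uterus was above the control uterus in CPM for all 25, by a median of 2.17-fold, beside 3255 of 9198 measured genes. For F11 this rests on 5 counts in each of these uteri and differs by library total alone. Since these 25 were chosen by their low values with BPA, the gap between the groups is a description. Not every other member that hepatocytes make shared it: Cfi was at 5.83, 6.92, 9.01 and 1.89 CPM in the control, BPA, KRG and combined uteri. Masp2 had a smaller gap, at 6.35, 2.84, 6.77 and 2.16 CPM. It stayed at 1.90% and 1.34% of the liver level with BPA and with both agents.

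General hepatocyte genes had the same pattern. The 12 hepatocyte markers had medians of 1.44%, 0.0435%, 3.44% and 0.0106% of the liver level in the control, BPA, KRG and combined uteri, and all 36 liver-measured members had 1.62%, 0.0929%, 3.60% and 0.0641%. The markers summed to 1284, 342, 2207 and 497 CPM, of which Trf, transferrin, alone made up 655, 300.4, 949 and 444 CPM, with Apob and Cps1 at 0 with BPA and Apob, Serpina1e and Tat at 0 with both agents. Alb, albumin, stood at 239, 4.81, 407 and 2.09 CPM. The part of liver RNA in the uterus values was not tested.

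**Figure D4:**
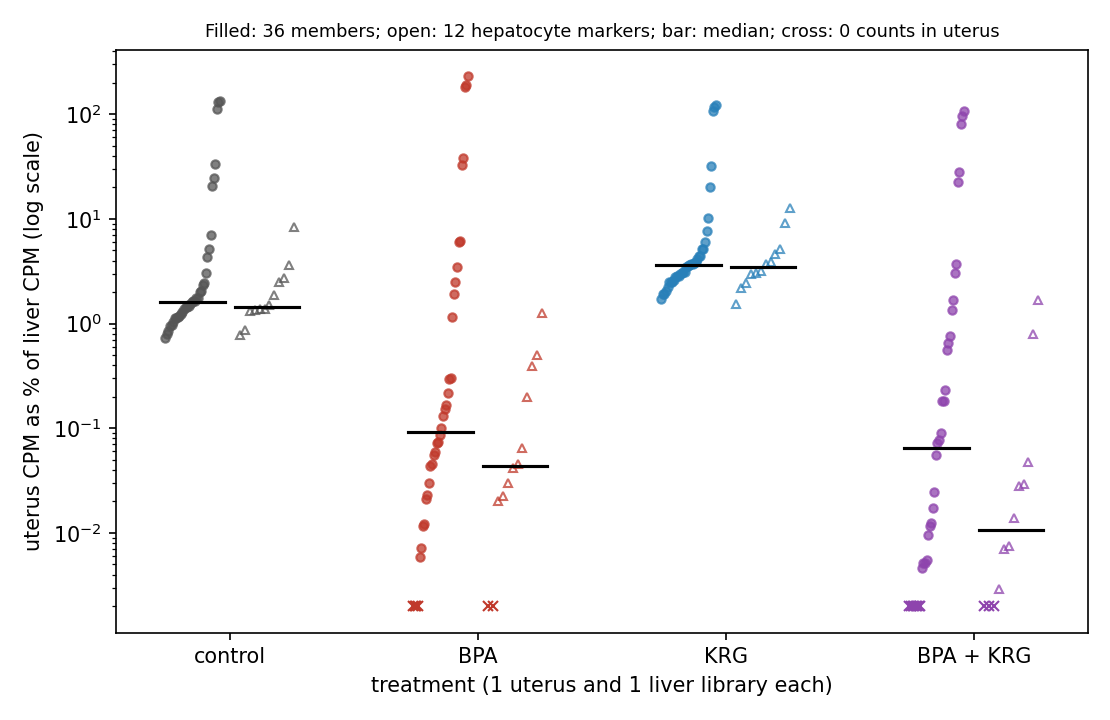
Uterus CPM as a percentage of the liver CPM of the same treatment (log axis), for the 36 members measured in liver (filled) and 12 hepatocyte markers (open), with medians as bars and 0 counts as crosses at the foot. The members' medians were 1.62% and 3.60% without BPA and 0.0929% and 0.0641% with it, and the markers' 1.44% and 3.44% without and 0.0435% and 0.0106% with it.

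The additive fit called 9 of 17 measured members lower with BPA in uterus and 0 higher, beside 0.891% and 1.33% of 9198 genes. Apart from Cfb, those called reached a mean of 10 CPM only through the uteri without BPA, so they could only be lower with it, and their count is a description. They were Mbl2, Cfb, C8a, Fgg, Fgb, F2, Kng1, Serpinc1 and Plg. Of the 9, 8 are among the 25 described above, and the ninth is Cfb. The fitted log2 differences ran from -9.06 for C8a (SE 0.68, adjusted p = 0.00489) to -1.72 for Cfb (SE 0.28, adjusted p = 0.0489). The call of Cfb was lost with DESeq2's size factors (adjusted p = 0.0670), column totals (adjusted p = 0.114) or a mean of at least 1 CPM (adjusted p = 0.0537). F5 was at -2.002 (SE 0.40, adjusted p = 0.0896) and did not pass. For KRG, edgeR called 0 of 17 members and 0 of 9198 genes, with 415 genes and 4 members under an unadjusted p of 0.05. DESeq2 called 1 member, Cfb, lower, beside 43 genes higher and 32 lower.

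Pairs of uterus libraries showed the same split, with the same limit from the filter. At 1.5-fold, 10 of 17 members were lower and 0 higher in BPA against control, beside 4.41% and 8.40% of all genes. In KRG against control 9 were higher and 1 (Cfb) lower, beside 5.83% and 7.74%, with the median log2 ratio of all genes at -0.12. With both agents 6 members were lower than with BPA, 11 lower than with KRG and 10 lower than the control, and 0 were higher in any of these, beside backgrounds of 8.68%, 11.1% and 11.5% lower and 5.01%, 16.5% and 11.3% higher. Under TMM scaling 4 members in place of 6 were lower with both agents than with BPA. At 2-fold, 10 members were lower and 0 higher in BPA against control (1.64% and 3.04% of all genes), and 5 higher and 1 lower in KRG against control (2.16% and 1.67%). With both agents, 1 was lower than with BPA (2.17%, and 1.04% higher), 11 lower than with KRG (4.64%, and 6.94% higher) and 10 lower than the control (3.66%, and 5.1% higher).

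Some members stood at a higher percentage of their liver level in every uterus than the median hepatocyte marker. Cfb stood at 477 CPM in the control uterus, 108 CPM with BPA, 136 CPM with KRG and 60.7 CPM with both. The control uterus alone was high, 4.41-fold above BPA (4.16 to 4.67) and 3.49-fold above KRG (3.31 to 3.68). These levels were 24.6%, 6.03%, 7.65% and 3.04% of the liver level. C3, the substrate of factor B's enzyme, was instead highest with KRG, at 401, 417, 637 and 272 CPM, the KRG uterus being 1.59-fold above the control (1.53 to 1.64). It stood at 7.08%, 6.18%, 10.1% and 3.68% of the liver level, and the summed hepatocyte markers were also highest with KRG. The 6 neutrophil markers with a row summed to 331, 204, 1278 and 203 CPM in these uteri, none at 0. The part of neutrophils or of liver RNA in the C3 values was not tested.

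Pros1 stood at 172, 217, 146 and 116 CPM in the control, BPA, KRG and combined uteri, at 132%, 229%, 117% and 97.0% of the liver level. Serping1 stood at 148, 197, 148 and 172 CPM, and C2 at 26.5, 27.9, 20.2 and 17.6 CPM. C1qa was at 206, 212, 161 and 209.6 CPM, with the KRG uterus alone low. For C1qa, C1qb and Serping1 both uteri with BPA lay above both without, 3 of 17 members where 28.1% of all genes had that order. The opposite order held for 10 of 17, beside 17.7%. Apart from Cfb, these 10 reached a mean of 10 CPM only through the uteri without BPA. They could only be lower with BPA, so their count is a description. F5 was at 24.4, 9.91, 22.4 and 3.58 CPM. In the BPA additive fit C3, C2, Pros1, Serping1 and the 3 C1q chains had edgeR adjusted p between 0.493 and 0.940.

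**Figure D5:**
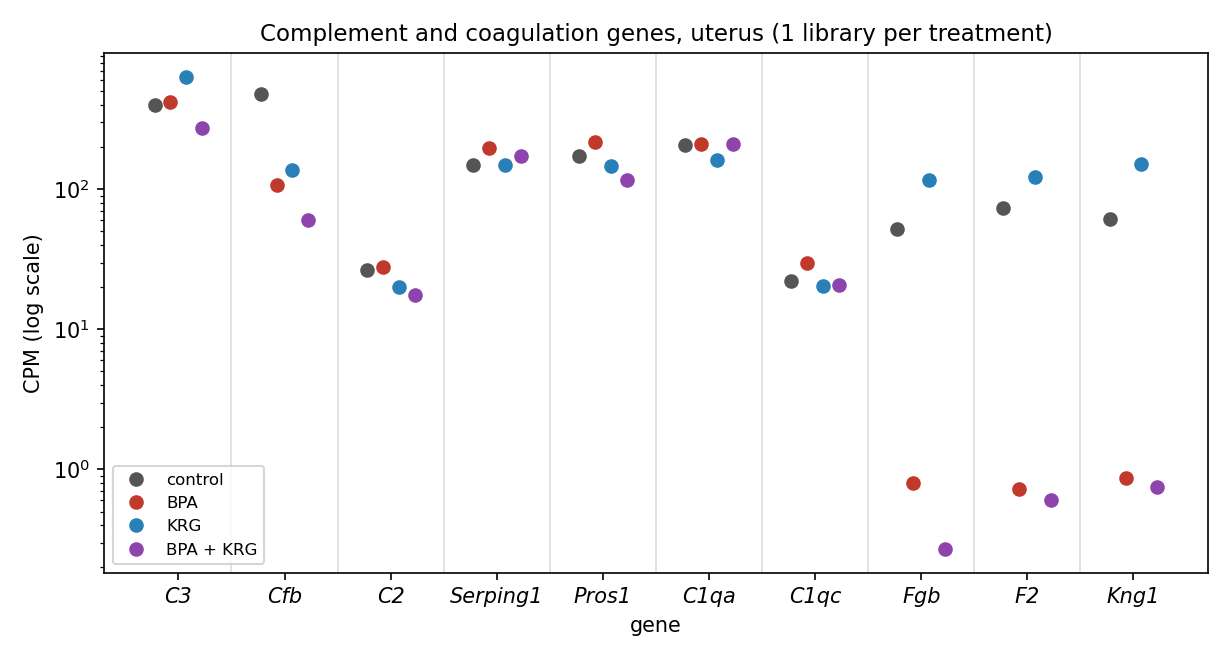
CPM (log axis) of 10 members in the 4 uterus libraries, 1 point per library. C3, C2, Serping1, Pros1, C1qa and C1qc lie at most 2.34-fold apart each, Cfb is high in the control alone, and Fgb, F2 and Kng1 are under 1 CPM in both uteri with BPA.

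Whether an agent's term differed between liver and uterus was tested in 1 fit over all 8 libraries, with 2 residual degrees of freedom. For BPA, edgeR called 23 of 37 members, all with a higher term in liver, beside 2.17% of 9941 genes higher and 0.433% lower. Most of them passed the filter through their liver level and were near 0 in the uteri with BPA, so the count is a description. All 23 are among the 25 members under 1% of the liver level in both uteri with BPA, of which C4bp and F11 were not called. C3, Cfb, C2, Cfi, Serping1, F5, F7, Masp2, Pros1 and the C1q chains were not called either. For KRG, edgeR called 0 members and 0 genes, with 510 genes and 12 members under an unadjusted p of 0.05. DESeq2 called 2 members, Mbl1 and F10, beside 13 genes with a higher and 97 with a lower term in liver. Where both uteri with BPA held 0 counts, as for C8b, C9 and Fga, the fitted value depends on the prior count and is no bound.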

How the data were processed

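The authors deposited raw counts, whole numbers for each of 23282 gene rows, in a separate file for every library; 44 rows with a repeated symbol stayed separate. Per the submitters' processing notes, Bowtie2, edgeR and the mm10 build were used, with no versions or roles; for the counter, strand and multiply matching reads, the method is not given in the sources used here. Counts were divided by each column total to give CPM, and ratios were taken of CPM + 1 on the log2 scale among the 4 libraries of a tissue, where a gene averaged at least 10 CPM. A ratio was counted past 1.5-fold or 2-fold and carries an exact Clopper-Pearson 95% interval of the count ratio.

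Tests across all genes used edgeR 4.0.16 (quasi-likelihood, TMM scaling, Benjamini-Hochberg adjustment over all genes tested, threshold 0.05) in R 4.3.3, with DESeq2 1.42.0 as an alternative, and the fits were tested on simulated data. The fits were the additive ones within a tissue, liver against uterus with treatment as a term, and the interactions of tissue with each agent. Nothing in the labels says that libraries of different treatments are replicates, so a p-value measures the spread left by these terms. Python 3.11.15 with pandas 2.3.3 and scipy 1.17.1 did the rest. Gene positions come from GENCODE for mm10 and promoter sequences from RefSeq.

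All members are named, by role. Of the other lists, genes at least 2-fold apart in a liver comparison could be named, at most 4 per list. Those named are not always the genes furthest apart. A gene that this rule would name is not reported here. Other genes given with values (C1s1, Crp, Cd5l, Cela1, Alb, Trf, Hoxa10 and Hoxa11) were chosen after their values were seen. The members and lists were chosen with earlier results of these data known. Alternatives changed the scaling, pseudocount, filter, fold, tool, treatment term and libraries left out.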

Additional observations from a re-analysis of the deposited data

Results flagged for a closer look

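In 2 of 53 sets of 4 libraries of a tissue, 1 library stood apart by Dixon's criterion, which chance alone meets in about 1 in 20 such sets. C4bp was highest in the BPA liver, at 195 CPM beside 185 to 187 CPM, with a gap of 0.84 of the whole range. C1qa was lowest in the KRG uterus, at 161 CPM beside 206 to 212 CPM, with a gap of 0.896 of the range.

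For 23 members the additive BPA term differed between liver and uterus (edgeR interaction, Benjamini-Hochberg adjusted p under 0.05). The log2 differences, liver minus uterus, were 9.31 for C8b, 8.70 for C8a, 8.24 for Fgg, 8.19 for Fga, 7.23 for F13b, 7.22 for F2, 7.11 for Fgb, 7.09 for Kng1 and 7.07 for Plg. They were 6.99 for C9, 6.38 for Mbl2, 6.29 for Proc, 5.91 for Cpb2, 5.46 for Klkb1, 5.43 for F12, 5.30 for F9 and 5.24 for Serpinf2. They were 4.58 for Serpinc1, 4.51 for Mbl1, 4.45 for Serpind1, 3.62 for Vtn, 3.09 for C8g and 2.27 for F10. All are members whose uterus level moved with the hepatocyte markers, which summed to 1284 and 2207 CPM in the uteri without BPA and to 342 and 497 CPM in those with it, where Trf alone made up 300.4 and 444 CPM. The part of liver RNA in these values was not tested.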

How the results depend on the processing

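No paired analysis was possible because the labels give no replicate numbers and each group is 1 library. Of the results that answer a comparison, 111 alternatives kept the count within 1.5 times and 20 did not. At 2-fold, the liver counts were 0 in BPA against control, 1 with both agents against BPA, 0 against KRG and 0 against control, and the uterus counts were 6 in KRG against control and 1 with both agents against BPA. With a mean of at least 1 CPM and with no filter, which admit more members, the liver count with both agents against control was 2. The uterus counts at those filters were 27 and 28 in BPA against control, 25 and 26 in KRG against control, 30 and 31 with both agents against KRG, 27 and 28 with both against control, and 17 and 25 for the BPA term. DESeq2 called 1 member for the KRG term in uterus and 2 for the tissue by KRG interaction. Leaving out 1 treatment gave 33 to 36 members called between liver and uterus.

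Of single genes, 2547 values kept their direction and side of the threshold or moved by less than their interval, 319 moved by more, 23 gained a call and 7 lost it. C1qc reversed between liver and uterus, to -0.22 with column totals. Cfb lost its BPA call in uterus with DESeq2's size factors (adjusted p = 0.0670), with column totals (adjusted p = 0.114) and at a mean of 1 CPM (adjusted p = 0.0537); across its other alternatives the adjusted p ran from 3.32e-09 to 0.0104. The cause was not tested. With 1 library per group, depth is not what limits the liver ratios: the spread between animals is not measured.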
